A study of Komagataella phaffii GS115 with 12 samples.

Results

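The strain G12-CBS was compared with the empty-vector strain GS115/3.5K after 72 h of methanol induction, on 3 arrays against 3 of the 12 arrays of the series, chosen by strain and time and with every row of the value table kept. Both strains are Komagataella phaffii GS115, the methylotrophic yeast long known as Pichia pastoris, grown in shake flasks in the mineral medium BSM with glycerol and then methanol, and both were fed L-methionine at 24 h of induction. G12-CBS carries DS56, a recombinant methionine adenosyltransferase gene, and has its CYS4 gene placed under G12, a weak promoter meant to lower it. The phenotype labels class it at 72 h as a high producer of S-adenosylmethionine. For side-by-side values, 3 arrays of the strain GS115/DS56 at 72 h (DS56 gene alone, fed L-methionine) and 3 of G12-CBS at 24 h (not yet fed) were also read. The control strain holds only the empty vector pPIC3.5K and is classed as a low producer. Within a group, each of the 3 samples was a culture of its own. The labels do not say whether a strain is 1 clone, and G12-CBS differs from the control in both engineering steps together, so this comparison cannot separate them.

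Methionine adenosyltransferase joins methionine and ATP into S-adenosylmethionine, the methyl donor of the cell. After a methyl group is given away, S-adenosylhomocysteine is split to homocysteine, which can be turned back into methionine or drawn off through cystathionine towards cysteine. CYS4 encodes cystathionine beta-synthase, which starts that drain. The pathway is of interest in this yeast because S-adenosylmethionine is made from fed methionine.

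Levels are the deposited log2 values, 1 per row and array, so a difference of 1 is 2-fold. Each of the 2390 rows is named by a systematic open reading frame name of Saccharomyces cerevisiae, and a RefSeq table of 5040 genes of K. phaffii holds none of these names. Symbols and roles given here are those of the S. cerevisiae genes of these names, from general knowledge of that yeast. The files pair no row with a symbol or product, so a row is not shown to measure a particular K. phaffii gene. Differences are taken within a row, and a bright or dim row is so in array signal, not in amount of transcript. Most rows were dim: the mean of the 6 arrays was below 7 in 84.0% of them, where array medians were 6.59 to 6.62, and no value could be called above background here. Arrays of 1 group correlated across rows at 0.955 to 0.961 and arrays of the 2 strains at 0.920 to 0.933. Array signal in a culture does not tell a change in all cells from a change in some of them.

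The rows for the methionine and S-adenosylmethionine genes were examined first, since they bear on the engineering. YDR502C, the S. cerevisiae methionine adenosyltransferase SAM2, gave the largest difference of the table. Its level was 15.76 on all 3 G12-CBS arrays, against 10.17, 10.48 and 10.76 on the control arrays. The log2 difference was 5.29 ± 0.16 (SE), or 39.0-fold on the deposited scale, with limma's adjusted p of 8.465e-07. The value 15.76 is the ceiling of every array, so the true ratio cannot be read from it, and the lack of spread there does not measure the replicates. On the control arrays that top place was held by YLR154C-H. The labels do not give the sequence of DS56, and whether this row responds to the recombinant gene was not tested.

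YLR180W, the paralog SAM1, was at 8.00, 8.02 and 8.12 in G12-CBS, against 7.50, 6.97 and 6.70 in the control. The groups did not overlap, and the log2 difference was 0.99 ± 0.20 (SE), with limma's adjusted p of 0.046, which was just inside the threshold of 0.05. It lost its call when any single array other than control replicate 1 was left out, at differences from 0.81 to 1.01, and kept it at 1.21 without that array. SAM1 and SAM2 are near-identical in S. cerevisiae, so that signal of one may reach the other's probes, and this was not tested. YGL184C (STR3), the cystathionine beta-lyase that forms homocysteine from cystathionine, was at 7.04, 7.34 and 7.69 in G12-CBS and at 6.24, 6.13 and 6.21 in the control. It rose by 1.17 ± 0.17 (SE, limma's adjusted p = 0.013), a call lost without G12-CBS replicate 2 or without control replicate 1 or 2. Its control values lay below the array medians. No row carried the name YGR155W (CYS4), so the lowering of that gene is not analysed here.

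YER043C (SAH1), which splits S-adenosylhomocysteine, had the lowest difference among the sulfur rows and is named here after its values were seen. It was at 7.31, 7.27 and 7.26 in G12-CBS, against 8.12, 8.03 and 7.67 in the control. The groups did not overlap, but the difference of -0.66 ± 0.15 (SE) did not pass limma's test (adjusted p = 0.076). The other sulfur rows of the table, which hold the sulfate and homocysteine genes of the MET family, the transsulfuration gene CYS3 and the spermidine genes SPE2, SPE3 and SPE4, did not pass.

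**Figure D1:**
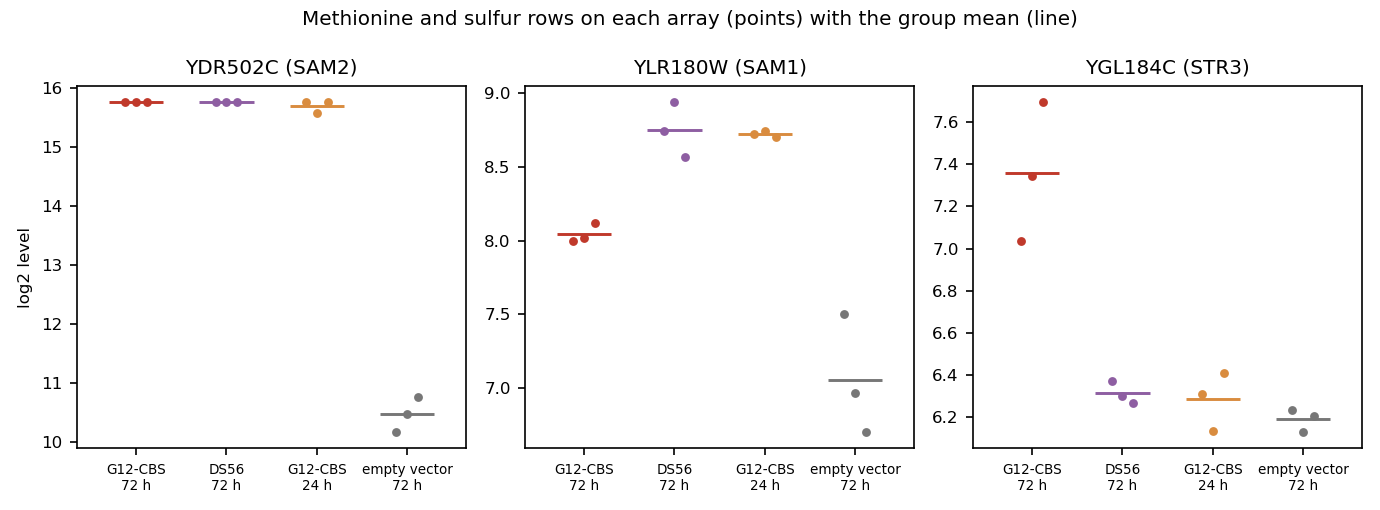
Log2 level (vertical axis, its own range in each panel) of the 3 called methionine and sulfur rows on the arrays of G12-CBS at 72 h, DS56 at 72 h, G12-CBS at 24 h and the empty vector at 72 h; points are arrays and lines group means. YDR502C reached 15.76, the top of the scale, on all 3 G12-CBS 72 h arrays and all 3 DS56 arrays, YLR180W lay higher in DS56 and in G12-CBS at 24 h than in G12-CBS at 72 h, and YGL184C was highest in G12-CBS at 72 h.

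Of the 2390 rows, 51 (2.13%) passed limma's adjusted p of 0.05, with the spread taken from the 6 arrays. G12-CBS was higher in 34 rows (1.42%) and lower in 17 (0.711%). Of these, 22 were at least 2-fold higher and 5 at least 2-fold lower, and all 51 had groups that did not overlap. Rows without overlap numbered 457 in all (19.1%), 208 above and 249 below, so most of them did not pass. The median difference over all rows was -0.02. The count of 51 depends on the arrays: it was 16 without control replicate 2 and 24 to 32 when any other single array was left out, and it was 220 with all 12 arrays in 1 model (9.21% of rows). The median SD of a row was 0.177 in G12-CBS and 0.185 in the control (n = 3 each). It was 0.112 in DS56 at 72 h and 0.095 in G12-CBS at 24 h, and the larger model shares its spread among all groups.

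Bright rows were called more often than dim ones. Of the 157 rows that averaged at least 8, 14 rose and 9 fell (14.6% called). Among the 2233 dimmer rows 20 rose and 8 fell (1.25% called). A list's share of calls set beside the 2.13% of all rows therefore does not allow for its level.

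**Figure D2:**
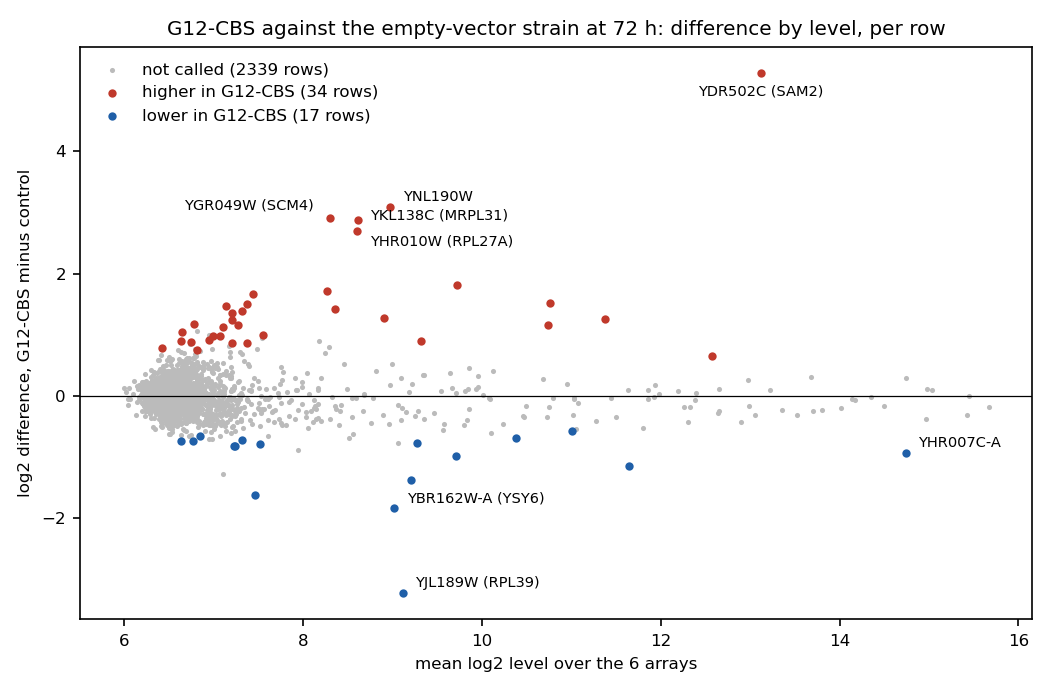
Log2 difference of G12-CBS minus control (vertical axis) against the mean log2 level over the 6 arrays (horizontal axis) for each of the 2390 rows. The 34 rows higher and the 17 rows lower in G12-CBS are coloured, rows not called are grey, and 7 of the 8 labelled rows lie at differences beyond 1.5, the eighth, YHR007C-A, being the brightest fall.

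Rows for proteins of the cytosolic ribosome were called in both directions. YHR010W (RPL27A, a protein of the large subunit) was at 10.60, 9.05 and 10.21 in G12-CBS, against 7.39, 7.42 and 6.96 in the control. It was 6.49-fold higher (log2 difference 2.70 ± 0.35, SE; limma's adjusted p = 0.0065), and G12-CBS replicate 2 stood below the other 2 arrays of its group. YJL189W (RPL39, a very small protein of the large subunit) was at 7.73, 7.15 and 7.60 in G12-CBS, against 10.96, 10.60 and 10.63 in the control. This was the deepest fall of the comparison, 9.42-fold (log2 difference -3.24 ± 0.19, SE; limma's adjusted p = 2.978e-05). YLR264W (RPS28B, small subunit) was at 8.49, 8.09 and 8.98 in G12-CBS and at 9.47, 10.40 and 9.84 in the control. Its fall, -1.39 ± 0.28 (SE), passed with limma's adjusted p of 0.047. YLR262C-A (TMA7, a translation-associated protein) fell by 0.99, to 8.98, 9.37 and 9.29 in G12-CBS, against 10.11, 10.34 and 10.17 in the control. In S. cerevisiae RPL27A and RPS28B have near-identical duplicates, so signal may be shared between duplicate rows. The call of RPL39 held whichever array was left out, those of RPL27A and TMA7 were lost without control replicate 2, and that of RPS28B was lost in each of the 6 such fits.

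The ribosome lists as a whole were called about as often as all rows (2.13%), but they are brighter. Of the 63 large-subunit rows 27 averaged at least 8, and of the 45 small-subunit rows 23, against 157 of all 2390. Among all rows at that level 14.6% were called, so 2.13% is not the share for rows of like level. Of 63 large-subunit rows 1 rose and 1 fell (3.17%), with a median difference of -0.05, and of 45 small-subunit rows none rose and 1 fell (2.22%), with a median of -0.03.

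Rows for mitochondrial proteins were found among both rises and falls. YKL138C (MRPL31, a large-subunit protein of the mitochondrial ribosome) was at 9.87, 10.11 and 10.17 in G12-CBS, against 7.05, 7.10 and 7.35 in the control, 7.38-fold higher (limma's adjusted p = 1.29e-05). YGR049W (SCM4, an outer-membrane protein) was at 9.89, 9.59 and 9.80 in G12-CBS, against 6.80, 6.72 and 7.01 in the control, 7.56-fold higher (limma's adjusted p = 1.284e-05). Both rows had tight replicates. Their control means of 7.17 (MRPL31) and 6.84 (SCM4) lay above the control array medians of 6.60 to 6.62. YHL004W (MRP4, small subunit of the mitochondrial ribosome) rose by 0.98 (limma's adjusted p = 0.0072). YDR322C-A (TIM11, a subunit of the ATP synthase) was at 9.22, 9.24 and 8.72 in G12-CBS and at 7.70, 7.56 and 7.65 in the control, a rise of 1.42 ± 0.17 (SE, limma's adjusted p = 0.0039). YKL192C (ACP1, the mitochondrial acyl carrier protein) was at 8.07, 7.20 and 8.33 in G12-CBS and at 6.66, 6.26 and 6.28 in the control, a rise of 1.47 with a G12-CBS SD of 0.591. YJL104W (PAM16, of the protein import motor) rose by 0.86 and lies outside the rule for named rows, as it was chosen after its values were seen. Among the falls were YBL022C (PIM1, the Lon protease of the matrix) by 0.83, YPL135W (ISU1, the scaffold for iron-sulfur clusters) by 0.75, and YLR304C (ACO1, aconitase of the citric acid cycle). ACO1 was at 10.71, 10.71 and 10.74 in G12-CBS, against 11.34, 11.28 and 11.28 in the control, a fall of 0.58 (limma's adjusted p = 0.044). PIM1, with limma's adjusted p of 0.048, was the last row inside the threshold. Of 9 called rows with mitochondrial roles, a grouping made after the calls, 6 rose and 3 fell, the same proportion as the 34 and 17 of all called rows. When each array was left out in turn, MRPL31, SCM4 and TIM11 kept their calls and MRP4 lost its call only without control replicate 2. PIM1 and ACO1 lost theirs every time, ACP1 on leaving out any array but G12-CBS replicate 2, PAM16 on leaving out any but G12-CBS replicate 3 and ISU1 on leaving out any but control replicate 1.

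Rows for secretion and membranes fell and rose in about equal number. The falls were led by YBR162W-A (YSY6, a small protein of the secretory pathway), at 8.10, 7.93 and 8.25 in G12-CBS, against 10.03, 9.80 and 10.00 in the control, 3.60-fold lower (limma's adjusted p = 0.000249). YBR171W (SEC66, of the complex that passes proteins into the endoplasmic reticulum) was at 8.87, 8.94 and 8.83 in G12-CBS and at 9.74, 9.71 and 9.53 in the control. YIR022W (SEC11, the catalytic subunit of signal peptidase) fell by 0.66 and YEL031W (SPF1, an ATPase of the endoplasmic reticulum) by 0.74. YHL028W (WSC4, a sensor of cell wall stress) fell by 0.73. The rises were YOR311C (DGK1, diacylglycerol kinase), at 9.77, 9.47 and 9.40 in G12-CBS and at 8.27, 8.25 and 8.27 in the control, and YDR519W (FPR2, a peptidyl-prolyl isomerase), which rose by 1.36. Outside the rule and chosen after their values were seen, YBL050W (SEC17, of vesicle fusion) and YNR049C (MSO1, of vesicle docking) rose by 0.89 and 0.86. The calls of YSY6 and DGK1 held whichever array was left out, and those of SEC11, SPF1, WSC4, SEC17 and MSO1 were lost every time. SEC66 lost its call on leaving out any array but control replicate 3 and FPR2 on leaving out any but control replicate 1.

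The called rows for surface and cell-wall proteins, a grouping made after the calls, were 5 rises. The called fall WSC4, a sensor of cell wall stress, was placed with membranes above, so the lack of falls depends on the grouping. Among all called rows 34 rose and 17 fell. Rows of this role that were not called were not counted, so no share is given. Apart from YNL190W the rises are 4 seripauperins, whose rows may share signal. YNL190W, a hydrophilin-like small protein in S. cerevisiae, was at 10.63, 10.45 and 10.48 in G12-CBS, against 7.60, 7.38 and 7.32 in the control. It was 8.51-fold higher (log2 difference 3.09 ± 0.13, SE; limma's adjusted p = 7.469e-06), the second largest rise. The seripauperin rows YAR020C (PAU7) and YLR037C (PAU23), of a family of cell-wall mannoproteins, were at 10.40, 10.68 and 10.79 and at 11.51, 11.59 and 11.44 in G12-CBS. In the control they were at 9.37, 8.19 and 8.87 and at 10.00, 9.97 and 10.03. PAU23 rose by 1.51 ± 0.12 (SE, limma's adjusted p = 0.000275); its control arrays were close together, whereas PAU7 rose by 1.81 ± 0.27 (SE, limma's adjusted p = 0.013) with control arrays that scattered more and lost its call without G12-CBS replicate 2 or 3.

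Carbon and nitrogen rows held a few changes. YDL215C (GDH2, NAD-dependent glutamate dehydrogenase, which releases ammonium) was at 9.00, 9.51 and 8.87 in G12-CBS, against 7.48, 7.67 and 7.08 in the control, 3.28-fold higher (limma's adjusted p = 0.0049). YLR284C (ECI1, an isomerase of peroxisomal fatty-acid breakdown) rose by 1.50, at 8.03, 8.12 and 8.22 in G12-CBS, against 7.12, 6.51 and 6.24 in the control. YHR183W (GND1, of the oxidative pentose phosphate pathway) was at 10.11, 9.87 and 10.11 in G12-CBS and at 10.68, 10.71 and 10.79 in the control, a fall of 0.70 (limma's adjusted p = 0.037). YCL039W (GID7, of the ubiquitin ligase that removes gluconeogenic enzymes) fell by 0.83. Of 47 central carbon rows 9 averaged at least 8, against 157 of all 2390. None of the 47 rose and 2, GND1 and ACO1, fell (4.26%, against 2.13% of all rows called), and both lost their calls whichever array was left out. GDH2 kept its call in each such fit, ECI1 lost it without G12-CBS replicate 2 or 3 or control replicate 2, and GID7 on leaving out any array but control replicate 3.

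The remaining leading rows had no role in common. YMR180C (CTL1, an RNA triphosphatase) rose by 1.66, at 8.43, 7.86 and 8.52 in G12-CBS, against 6.71, 6.51 and 6.61 in the control, and YNL230C (ELA1, elongin A) rose by 1.39. YCL028W (RNQ1, a prion protein in S. cerevisiae) was at 6.87, 6.36 and 6.70 in G12-CBS, against 8.83, 8.49 and 7.49 in the control, a fall of 1.63 that passed with limma's adjusted p of 0.042. YOL080C (REX4, an RNA exonuclease) fell by 0.79. YLR466C-B and YHR007C-A, bright rows with suffixed names and no role given here, fell by 1.15 and 0.94. YHR007C-A was at 14.24, 14.24 and 14.32 in G12-CBS, against 15.27, 15.10 and 15.27 in the control, the brightest fall. Suffixed names, which S. cerevisiae annotation gave to later-found small reading frames, made up 137 rows, of which 2 rose and 4 fell (4.38% called, against 2.13% of all rows). Of the 137 rows 21 averaged at least 8, against 157 of all 2390, so 2.13% is not the share for rows of like level. CTL1 and YHR007C-A kept their calls whichever array was left out, and YLR466C-B lost its call without control replicate 2. ELA1 and REX4 lost theirs on leaving out any array but G12-CBS replicate 2, and RNQ1 on leaving out any but control replicate 3.

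**Figure D3:**
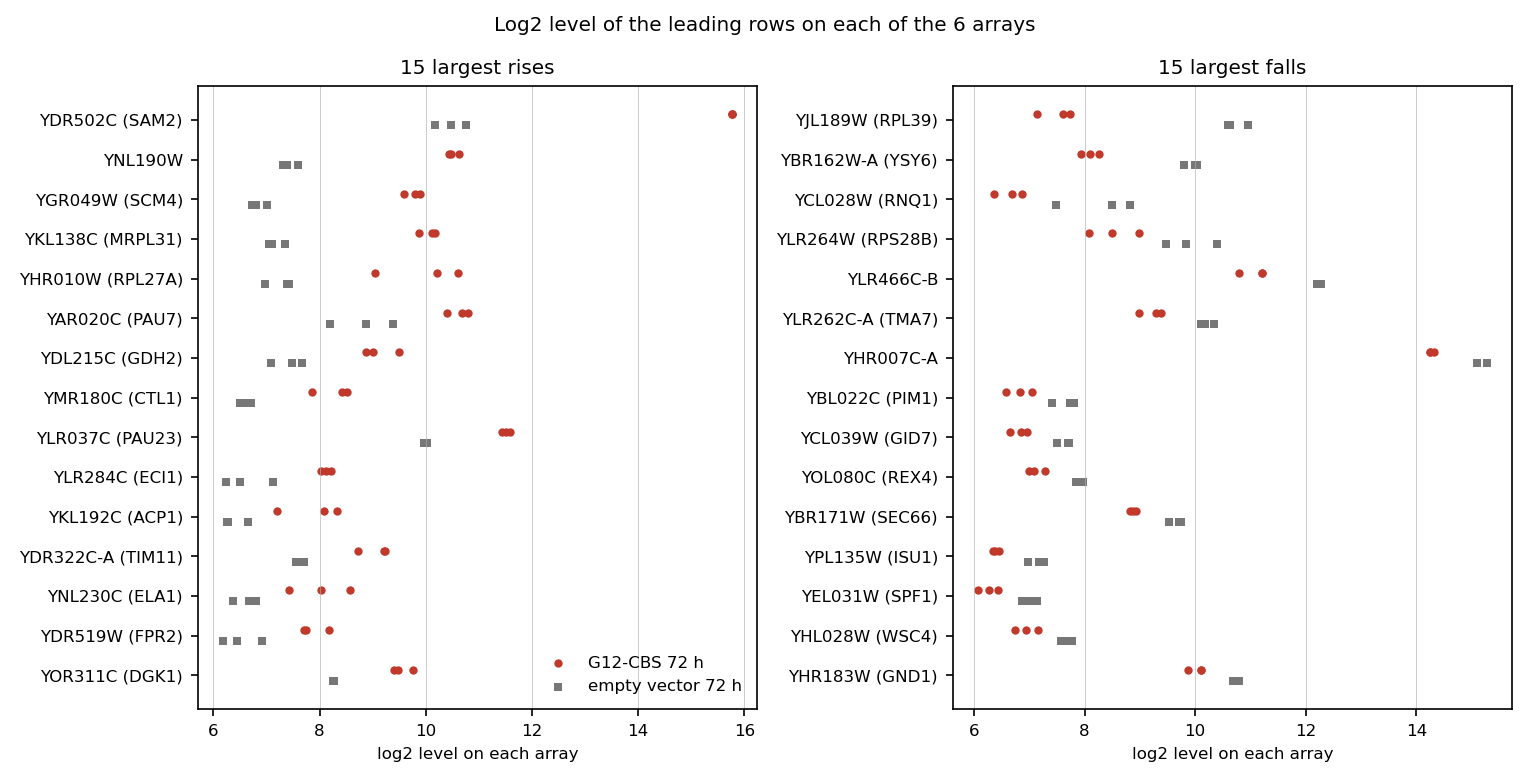
Log2 level (horizontal axis) on each of the 3 G12-CBS arrays (red circles) and the 3 control arrays (grey squares) at 72 h for the 15 largest rises and the 15 largest falls. The points of the 2 strains do not overlap in any of these rows, as the rule for naming them asks. The G12-CBS points of YDR502C lie on each other at 15.76.

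The 18 gene lists, chosen with earlier results of these data known, hold 404 rows of the table, of which 14 were called (3.47%, against 2.13% of all rows), 8 higher and 6 lower. Of the 404 rows 96 averaged at least 8, against 157 of all 2390, and bright rows were called more often. Their medians lay between -0.19 for histones and 0.31 for the rDNA reading frames, which are only 2 rows, against -0.02 for all rows. Among the 25 sulfur rows 3 rose and none fell with the 6 arrays, against 3 and 2 with all 12 arrays in 1 model. Of 30 mitochondrial ribosome rows 2 rose, of 21 respiration rows 1 (TIM11), of 31 chaperone rows 1 (FPR2), and of 13 secretory rows 2 fell (YSY6 and SEC11). No row passed in the lists of histones, translation factors, redox, proteasome, amino acid synthesis, ergosterol, peroxisome, proton pumps, ribosome biogenesis and rDNA, by limma with the 6 arrays. Of the 129 rows in these 10 lists, 26 had an unadjusted p under 0.05, a higher share than the 344 of all rows (14.4%). With all 12 arrays in 1 model 18 of the 129 were called, also a higher share than the 9.21% of all rows. Neither share is set against rows of like level. In these lists 7 of 8 histone, 6 of 24 translation factor and 5 of 13 redox rows averaged at least 8, but no ergosterol or peroxisome row. The largest difference in each of these lists was taken as a value. It was 1.06 for YOL038W (PRE6, proteasome), with limma's adjusted p of 0.055, just outside the threshold. It was -0.54 for YBL003C (HTA2, histone H2A), whose 3 G12-CBS arrays lay below the control arrays at 10.74 to 10.85 against 11.28 to 11.34 (limma's adjusted p = 0.066). The values were -0.60 for YPL048W (CAM1), 0.53 for YDR353W (TRR1), 0.68 for YIR034C (LYS1), 0.55 for YMR208W (ERG12), 0.51 for YPL147W (PXA1), 0.57 for YOR270C (VPH1), -0.53 for YDL014W (NOP1) and 0.79 for YLR154W-C (TAR1). Of the 8 histone rows, 7 had a negative difference, and the rows are bright, with 7 of 8 means at 8 or above. Negative differences were also the more common ones among all rows (1290 of 2390) and among rows averaging at least 8 (96 of 157).

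**Figure D4:**
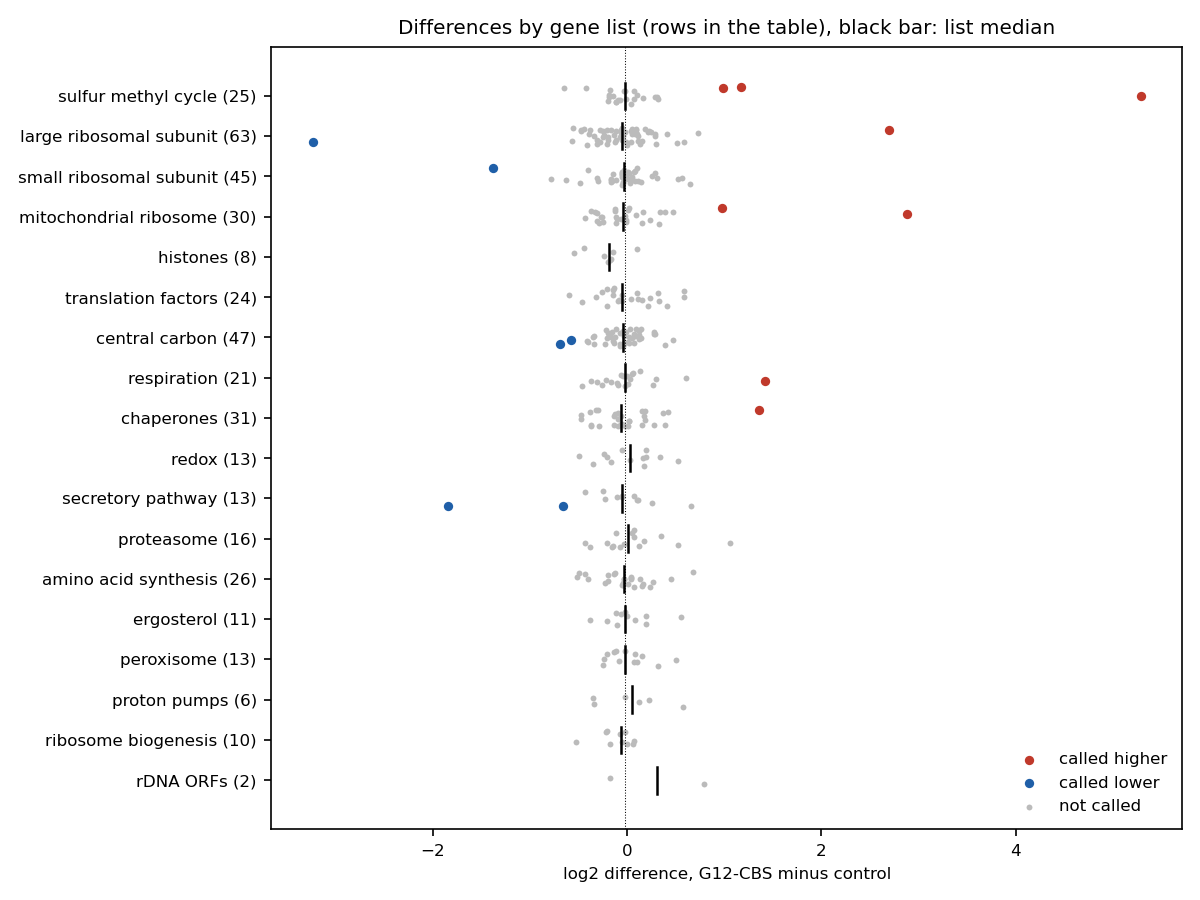
Log2 difference of G12-CBS minus control (horizontal axis) for the table's rows in each of the 18 gene lists (numbers of rows in parentheses). Coloured points were called, grey points were not, black bars are list medians and the dotted line is the median of all rows. List medians lie between -0.19 and 0.31. Some called rows stand far from the rest of their list, but SEC11, called at -0.66, is about equal in size to an uncalled secretory row at 0.66.

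The same rows were set beside the strain with DS56 alone, which shares the 3 control arrays with G12-CBS, so that the 2 differences from control are not independent. Limma called 301 rows (12.6%) for DS56 against control and 465 rows (19.5%) for G12-CBS against DS56, again with the spread from the 6 arrays of each comparison. YDR502C was at 15.76 on all 3 DS56 arrays as well, so its levels cannot be ranked between the strains. YLR180W was at 8.74, 8.94 and 8.57 in DS56, and G12-CBS lay 0.71 below it (log2 difference -0.71, limma's adjusted p = 0.0028). For YGL184C the difference from control in DS56 was 0.12, and G12-CBS lay 1.04 above DS56 (limma's adjusted p = 0.000797).

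Some leading rises of G12-CBS were also called higher in DS56 than in control. Besides YDR502C, YAR020C (PAU7) lay 0.86 above control in DS56 (limma's adjusted p = 0.039) and YDR519W (FPR2) 0.66 (0.033). G12-CBS lay above DS56 by 0.95 and 0.70 in these rows, both called by limma. YOR311C (DGK1) and YDR322C-A (TIM11) were called lower in DS56 than in control. Several other leading rises of G12-CBS had no called difference from control in DS56. YNL190W was at 7.30, 6.95 and 6.96 in DS56, and G12-CBS was higher by 3.45. The log2 difference of DS56 from control was -0.03 for YGR049W, -0.35 for YKL138C, 0.47 for YHR010W and -0.27 for YDL215C, none of which passed limma's test, and G12-CBS lay above DS56 by 2.95, 3.23, 2.23 and 1.98 in these rows, all called by limma. At 24 h, G12-CBS itself had YNL190W at 7.09, 7.45 and 7.28 and YKL138C at 6.87, 6.66 and 6.79. Its 72 h arrays lay 3.25 and 3.28 above these levels (limma called 553 rows, 23.1%, between the times), and both the longer induction and the feeding separate the 2 times and cannot be told apart.

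Several falls were also seen with DS56 alone. YBR162W-A differed from control by -1.50 in DS56, YCL028W by -1.32 and YLR466C-B by -1.26, and limma did not call G12-CBS against DS56 in these rows (differences of -0.35, -0.30 and 0.12). YHR007C-A was at 12.55, 12.42 and 12.73 in DS56, a log2 difference of -2.64 from control, and YBR171W and YOL080C differed from control by -1.68 and -1.53. YJL189W was at 9.87, 9.87 and 9.80 in DS56, between G12-CBS and the control, and YLR264W was at 10.60, 10.74 and 10.21, above G12-CBS and overlapping the control.

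**Figure D5:**
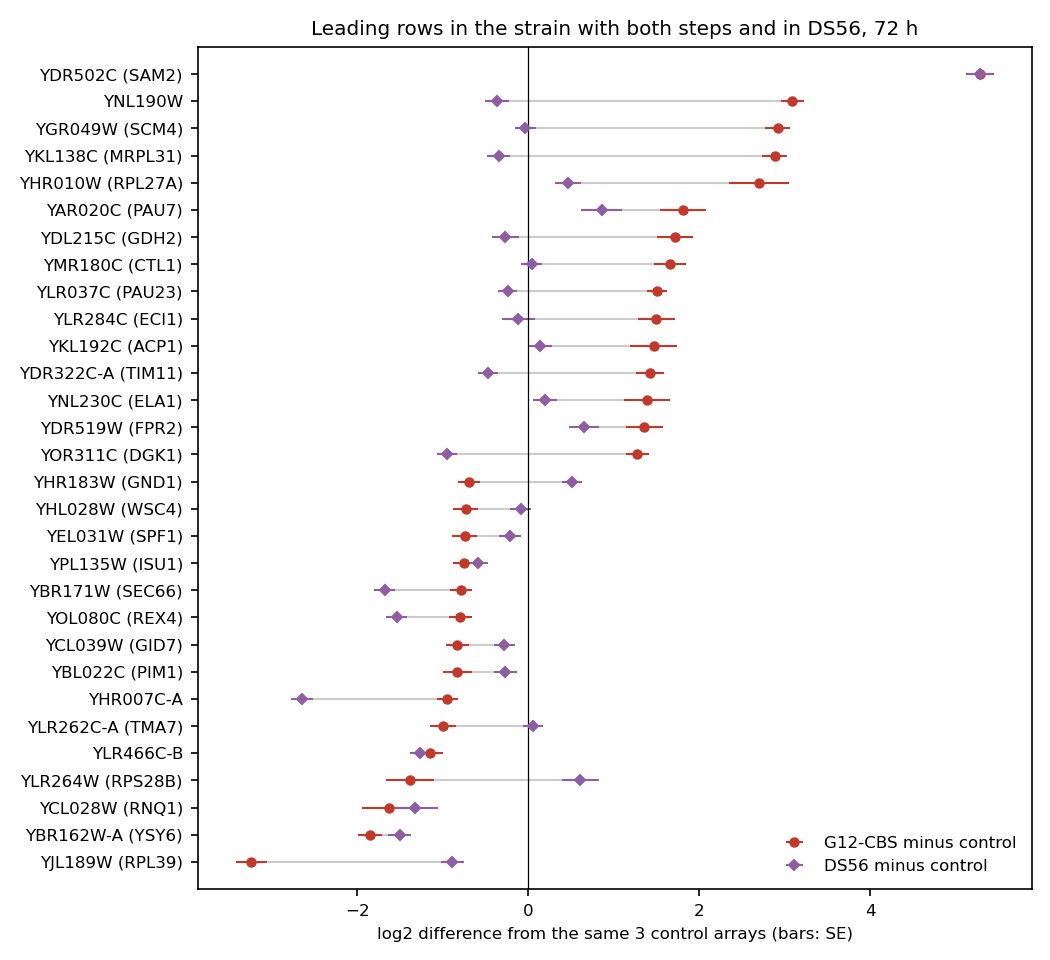
Log2 difference from the same 3 control arrays at 72 h (horizontal axis) for the 15 largest rises and 15 largest falls of G12-CBS, shown for G12-CBS (red circles) and DS56 (purple diamonds) with SE bars. The symbols coincide for YDR502C at 5.29, stand apart for YNL190W, YGR049W and YKL138C, and lie close for YBR162W-A and YLR466C-B.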

How the data were processed

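Total RNA labelled with Cy3 was measured on 12 NimbleGen arrays of 1 colour, 3 for each of 4 groups taken from the sample titles. The values are log2 levels as deposited by the authors, with RMA given as the tool per the submitters' processing notes. Per the series' design text an array holds 5777 genes with 8 probes each. The sources used here give neither the RMA version, nor the probe sequences, nor why the table has 2390 rows, all of which were used. No depth applies to arrays, whose number limits the precision.

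G12-CBS and the control at 72 h were compared with limma 3.58.1 in R 4.3.3 (lmFit, eBayes, two-sided) on their 6 arrays, without a replicate block. The Benjamini-Hochberg adjustment ran over all rows. A row was called at an adjusted p under 0.05. SE is limma's moderated standard error and SD the spread of 3 arrays. The fit was tested on simulated data with independent normal noise in each row. That simulation held no ceiling and no signal shared between rows, so it does not bear on those limits. The rule for named rows took, among called rows whose groups do not overlap, the 15 largest rises and 15 largest falls, the engineered genes, and for each list the 2 largest called changes in each direction or else its largest difference; rows named outside it are said to be so.

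All 2390 row names occur among the S. cerevisiae gene names that come with GenomicFeatures 1.54.1, a table without symbols, so symbols, roles and the 18 lists were written from knowledge of S. cerevisiae genes. The comparison, members and lists were chosen with earlier results of these data known, and the groupings by role were made after the calls. Alternatives were all 12 arrays in 1 model, a replicate block, quantile normalization, median centring, removal of the dimmest 25% of rows, array weights, moderation with a trend and robust to outlying rows, limma's treat with a fold of 1.2, and fits lacking 1 array in turn. Plots used matplotlib 3.10.9.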

Additional observations from a re-analysis of the deposited data

Results flagged for a closer look

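In 3 called rows the strain with both engineering steps and the strain with DS56 alone lay on opposite sides of the same 3 control arrays, with both differences and the difference between the strains past limma's adjusted p of 0.05. YOR311C (DGK1) differed from control by 1.28 in G12-CBS and by -0.95 in DS56, so that G12-CBS lay 2.23 above DS56 on the log2 scale (adjusted p = 1.36e-06). Its levels were 9.77, 9.47 and 9.40 in G12-CBS and 7.47, 7.28 and 7.21 in DS56, with the control at 8.25 to 8.27. YDR322C-A (TIM11) differed by 1.42 in G12-CBS and by -0.47 in DS56, a difference between the strains of 1.89 (adjusted p = 7.142e-06). YHR183W (GND1) went the other way, by -0.70 in G12-CBS and 0.51 in DS56, with a difference between the strains of -1.20 (adjusted p = 5.163e-05), and its call against control in G12-CBS was lost whichever array was left out. Groups of 3 arrays are too small for a test of single outlying samples.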

How the results depend on the processing

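Of the 51 called rows, 15 were called in all 14 alternatives and 36 lost the call when some single array was left out. That none changed sign is no test, since all 51 had groups without overlap and leaving out an array could not reverse them. The 15 rows called in all alternatives include YDR502C, YNL190W, YGR049W, YKL138C, YDL215C, YJL189W and YBR162W-A. The count of called rows, and that of the 14 in gene lists, was 220 and 53 with all 12 arrays in 1 model, and 96 and 36 with trend and robust moderation; both alternatives called all 51. It was 23 and 9 against a 1.2-fold change, a test that asks for more than a difference from 0. Leaving out 1 array gave 16 to 32 rows and 5 to 9 in lists, from fewer samples. Rises made up 66.7% of the 51 and 54.5% of the 220. For YLR180W the difference of 0.99 lost its call against a 1.2-fold change (limma's adjusted p = 0.19), and it ran from 0.81 to 1.21 without single arrays. With the replicate number as a block, 22 rows passed (all among the 51), 7 of them in lists, and YLR180W, still 0.99, did not (adjusted p = 0.13). The sample titles do not say whether same-numbered arrays were paired. Deviations from the group means correlated at 0.02, -0.09 and -0.02 for these and at -0.07 to 0.08 for differently numbered arrays. Such values cannot tell whether cultures of 1 number were handled together. The cause of the changes between settings was not tested. Quantile normalization, centring, array weights and removal of dim rows left 49 to 55 rows. The 6 deposited arrays already shared their top value and had medians of 6.59 to 6.62. Quantile normalization and centring therefore had little to change and say little about normalization. Signal over background was not available, so no limit could be set for dim rows.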

Other observations

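The seripauperins, a family of S. cerevisiae cell-wall mannoproteins, were looked at as a family after the calls of PAU7 and PAU23 had been seen, and no test of the family was made. Of 24 family members 16 have a row. The 4 called rows were all higher in G12-CBS, namely YAR020C (PAU7), YLR037C (PAU23), YLL025W (PAU17) and YAL068C (PAU8), against 2.13% of all rows called. PAU7 and PAU23 prompted the choice of the family, so their calls and lack of overlap are no result about it. Of the 16 rows 4 averaged at least 8, against 157 of all 2390. Among all rows at that level 14.6% were called, so 2.13% is not the share for rows of like level. Without overlap, 8 rows lay above the control arrays and none below, against 8.70% and 10.4% of all rows. PAU23 and PAU17 kept their calls whichever array was left out, PAU7 lost its call without G12-CBS replicate 2 or 3, and PAU8 on leaving out any array but control replicate 1. YLL025W was at 11.99, 12.16 and 11.85 in G12-CBS, against 10.71, 10.85 and 10.68 in the control, and YAL068C was at 7.10, 7.26 and 7.21 in G12-CBS, against 6.61, 6.15 and 6.16 in the control. The differences of the 16 rows ran from 0.00 (YEL049W) to 1.81 (YAR020C), with a median of 0.25 against -0.02 for all rows. Family members are near-identical in sequence in S. cerevisiae, so signal may be shared between rows and the 16 are not independent.

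Outside the rule for named rows and chosen after their values were seen, 2 called rises were among the brightest. YFL039C (ACT1, actin) was at 12.80, 12.86 and 13.04 in G12-CBS, against 12.27, 12.23 and 12.23 in the control, a difference of 0.66 ± 0.12 (SE, limma's adjusted p = 0.039). Its call was lost whichever array was left out. In DS56 it was at 12.73, 12.65 and 12.55, also called higher than control (difference 0.40, limma's adjusted p = 0.046). YGR236C (SPG1, a protein of survival in stationary phase) was at 11.16, 11.51 and 11.28 in G12-CBS, against 10.21, 10.17 and 10.11 in the control (difference 1.15 ± 0.14, SE; limma's adjusted p = 0.0039). Its level in G12-CBS at 24 h was 11.16, 11.59 and 11.34, close to that at 72 h, unlike YNL190W and YKL138C. The other called rises outside the rule were YBR188C (NTC20, splicing) at 1.24, YPL192C (PRM3, nuclear fusion) at 1.15, YNR061C at 1.13, YGL221C (NIF3) at 1.04, YDR202C (RAV2, of the regulator of vacuolar proton pump assembly) at 0.98, YKR011C at 0.91, YDR106W (ARP10, dynactin) at 0.90, YNL130C-A (DGR1) at 0.78 and YMR042W (ARG80, arginine regulation) at 0.75.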
